A study of Mus musculus with 2 samples.

Results

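The miR-130 and miR-301 family comprises the microRNA (miRNA) genes Mir130a, Mir130b, Mir301 (which makes miR-301a) and Mir301b, taken here by name from the deposited tables. All 4 genes have an entry among the 1973 miRNA genes in the tables, and all 4 were detected, that is, had at least 10 counts in each library. The series is small RNA sequencing of hearts of B6NCrl mouse embryos at embryonic day 14.5. There is 1 group of 2 libraries and no treated or control group. Per the labels, biological replicate 1 was collected on 15 July 2014 and replicate 2 on 17 July 2014. The labels call each sample a single heart but also give the sex as males and females pooled, so whether a library holds 1 animal is not settled.

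A miRNA guides the silencing machinery to messenger RNAs through its seed, bases 2 to 8 from its 5′ end, and miRNAs with the same seed are expected to share many targets. A hairpin precursor is cut into an arm near its 5′ end (5p) and one near its 3′ end (3p), and either can be loaded. In this family the 3p arm is the one generally taken as the active product. In the heart and vessels miR-130a is known as a repressor of Fog2 (Zfpm2), a cofactor of GATA factors in heart morphogenesis, and of the homeobox genes Gax and Hoxa5 in endothelial cells. The wider family is known for repressing Pparg in the vessel wall.

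The mature 3p sequences are shown because the shared seed defines the family and the remaining bases decide whether reads of different members can be told apart. They come from RefSeq (build GRCm38.p6), 5′ to 3′, with the seed in capitals. For Mir301b that table gave the 5p product and the hairpin.
miR-130a-3p: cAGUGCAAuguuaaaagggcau
miR-130b-3p: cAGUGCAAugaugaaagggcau
miR-301a-3p: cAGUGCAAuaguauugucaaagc

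The hairpins follow in the same form, with the bases of the family seed in capitals, since reads on either arm were counted under the gene.
Mir130a hairpin: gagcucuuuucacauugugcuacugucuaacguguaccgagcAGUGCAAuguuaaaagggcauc
Mir130b hairpin: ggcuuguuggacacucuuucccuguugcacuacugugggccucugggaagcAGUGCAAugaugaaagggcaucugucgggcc
Mir301 hairpin: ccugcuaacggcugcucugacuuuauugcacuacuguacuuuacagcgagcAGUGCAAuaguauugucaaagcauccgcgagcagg
Mir301b hairpin: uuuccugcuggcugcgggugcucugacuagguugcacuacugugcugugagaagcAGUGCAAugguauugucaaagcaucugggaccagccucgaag

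Each hairpin held the family seed 1 time, on the 3′ side of the loop. The 3p products of Mir130a and Mir130b were identical at 20 of 22 bases and differed by U11A and A13G (the Mir130a base first, positions counted from the 5′ end). miR-301a-3p shared its first 9 bases with both and matched miR-130a-3p at 12 of 22 positions and miR-130b-3p at 11. Bases 55 to 77 of the Mir301b hairpin matched miR-301a-3p at 22 of 23 positions, with A10G as the single difference. On the 3p side the family therefore falls by sequence into a miR-130 pair and a miR-301 pair, which share the seed and diverge after it.

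The 5p products had no common seed. miR-130a-5p carried CUCUUUU at bases 2 to 8 and miR-130b-5p carried CUCUUUC, whereas miR-301a-5p and miR-301b-5p both carried CUCUGAC. Over the whole 5p products, miR-301a-5p and miR-301b-5p matched at 19 of 22 positions. miR-130b-5p matched each of them at 16 of 22 and miR-130a-5p at 15 of 22, so the 5p products did not show a miR-130 pair. The tables count whole genes, so the split of reads between arms is not measured here.

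The 4 genes lie at 3 loci on GRCm38, the assembly of mm10. Mir130a lies on chromosome 2 (84741115 to 84741178, minus strand) and overlaps no other gene in GENCODE M21. The nearest annotated gene is Gm19426, 990 bases away on the same strand, followed by Ypel4 at 2459 bases. Mir301 lies on chromosome 11 (87113004 to 87113089, plus strand) in an intron of Ska2, which encodes a subunit of the spindle and kinetochore associated complex. It lay within an intron of 2 of the 3 annotated Ska2 transcripts. Mir130b (17124061 to 17124142) and Mir301b (17124400 to 17124496) lie on the minus strand of chromosome 16, separated by 257 bases. Both sit in the same intron of 3 of the 8 annotated transcripts of the protein-coding gene 2610318N02Rik, on its strand, and overlap no exon. No other miRNA gene of the annotation lay within 10 kb of a member.

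Replicate 1 had 4327424 counts on genes of the counted strand and replicate 2 had 3839984, and levels are given as CPM, counts scaled to these totals. Of the 5 heart muscle markers, the 3 hosted in myosin genes were abundant, with Mir208b at 66568 ± 359 CPM (SD, n = 2), Mir208a at 7962 ± 2009 and Mir499 at 3023 ± 179. Mir1a-1 and Mir133a-1 were near the limit of detection, at 2.80 ± 0.283 and 2.95 ± 0.249 CPM. Reads mapping to several places made up 30.4% ± 0.359 of all reads and are not in the gene counts. How reads of Mir1a-1 and Mir133a-1 were placed was not tested, so their low counts do not show that their miRNAs were rare. Intervals below are exact 95% binomial intervals on read counts, so they reflect counting error alone and not other spread between libraries. PCR copies of 1 molecule cannot be recognised in these reads, so the intervals can be too narrow even for counting error.

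Mir130a was the leading member. It had 74904 counts in replicate 1 and 71784 in replicate 2, or 17309 CPM (interval 17187 to 17433) and 18694 CPM (18559 to 18830), with a mean of 18001 ± 979 CPM (SD, n = 2). It stood at rank 15 among all genes in both libraries, so that 4.45% of the 337 detected genes, itself included, lay at or above it. Mir130b, with 15514 and 12446 counts, reached 3585 CPM (3529 to 3642) and 3241 CPM (3185 to 3299), a mean of 3413 ± 243. Its rank was 36 in replicate 1 and 37 in replicate 2. Mir130a and Mir130b thus ranked high among the gene counts of these libraries, which leave out reads mapping to several places. Read counts of different miRNAs were not calibrated to amounts in the tissue.

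Both miR-301 genes were lower. Mir301 had 5774 and 4802 counts, which gave 1334 CPM (1300 to 1369) and 1251 CPM (1215 to 1286), a mean of 1292 ± 59.2, at ranks 72 and 76. Mir301b had 293 and 201 counts, or 67.7 CPM (60.2 to 75.9) and 52.3 CPM (45.4 to 60.1), with a mean of 60.0 ± 10.9 at ranks 184 and 207. Mir301b was the rarest member and carried the widest counting interval relative to its level, yet it lay far above the floor of 3 counts, 0.693 CPM for replicate 1 and 0.781 CPM for replicate 2.

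**Figure D1:**
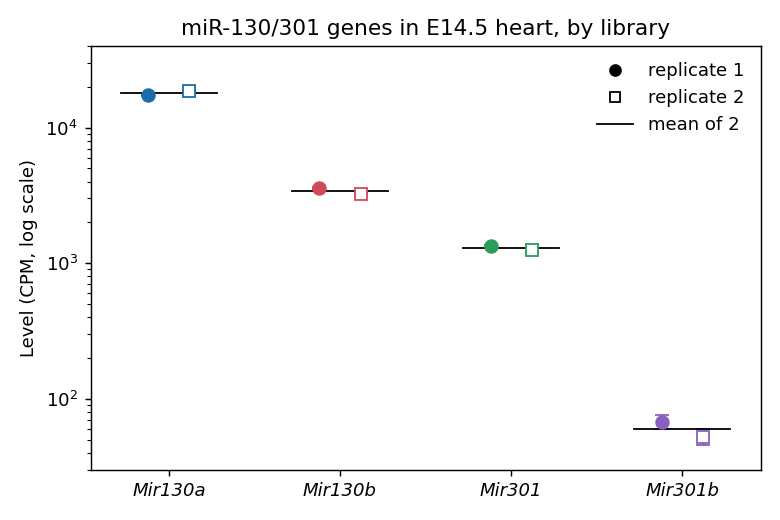
Level of each family member in CPM (y axis, log scale) in replicate 1 (filled circles) and replicate 2 (open squares), with exact 95% counting intervals as bars and the mean of both libraries as a line. The order Mir130a, Mir130b, Mir301, Mir301b was the same in both libraries, and the values of neighbouring members did not overlap.

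The order of levels was Mir130a, Mir130b, Mir301 and Mir301b in each library. For each of the 3 neighbouring pairs in this order, the lower of the higher gene's 2 values exceeded the higher of the other's, so all neighbours differed by more than the spread between libraries. With 2 libraries an exact permutation test of 2 values against 2 cannot give a two-sided p below 0.333, and no test of the order was made. Hairpin length rises as level falls, from 64 bases (Mir130a) to 97 (Mir301b), so dividing by hairpin length could not change the order. On that scale the mean levels were 281 CPM per base for Mir130a, 41.6 for Mir130b, 15.0 for Mir301 and 0.619 for Mir301b.

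**Figure D2:**
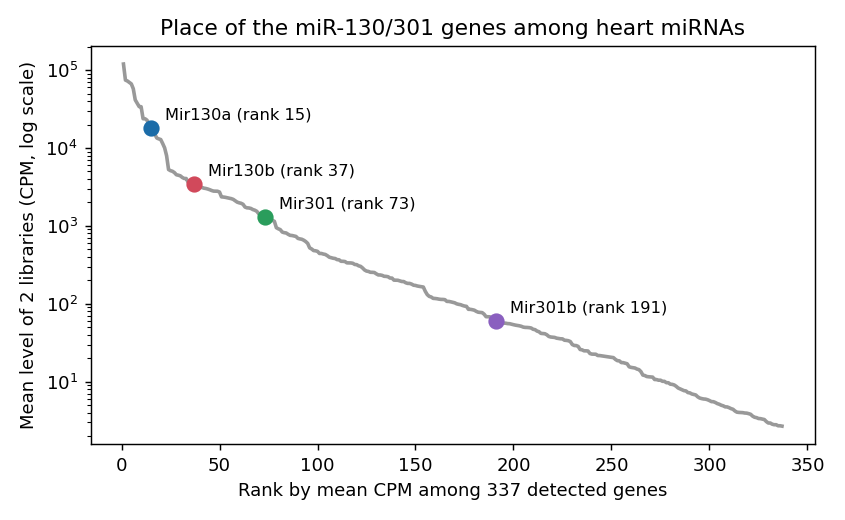
Mean CPM over both libraries (y axis, log scale) against rank for the 337 detected miRNA genes (grey line), with the 4 members marked. By mean level Mir130a stood at rank 15, Mir130b at 37, Mir301 at 73 and Mir301b at 191.

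Together the 4 genes held 96485 counts in replicate 1 and 89233 in replicate 2, or 2.28% ± 0.0666 of all gene counts. Mir130a supplied most of this sum, 77.6% (interval 77.4 to 77.9) in replicate 1 and 80.4% (80.2 to 80.7) in replicate 2. Mir130b supplied 16.1% (15.8 to 16.3) and 13.9% (13.7 to 14.2). The share of Mir301 was 5.98% (5.84 to 6.14) and 5.38% (5.23 to 5.53). That of Mir301b was 0.304% (0.270 to 0.340) and 0.225% (0.195 to 0.259). The Mir130a share was higher in replicate 2 and the shares of the other 3 were lower, and for all 4 the intervals of the libraries did not overlap. The shares have a fixed total, so a rise in the largest must lower the sum of the others, and the 4 are not separate results. Differences beyond counting error were also common among all genes. The counting interval of the ratio of replicate 2 to replicate 1 excluded 1 for 52.2% of the 337 detected genes.

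Ratios between members of 1 library do not depend on how the libraries are scaled. Mir130a exceeded Mir130b, its closest relative by sequence, by 4.83 times (4.75 to 4.91) in replicate 1 and 5.77 times (5.66 to 5.88) in replicate 2. Mir130a exceeded Mir301 by 12.97 times (12.6 to 13.3) and 14.9 times (14.5 to 15.4). In both ratios the intervals of the libraries did not overlap. Mir301 exceeded Mir301b by 19.7 times (17.5 to 22.2) and 23.9 times (20.7 to 27.6), and here the intervals overlapped.

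The 2 genes that lie 257 bases apart in 1 intron had very different levels. Mir130b exceeded Mir301b by 52.9 times (47.2 to 59.6) in replicate 1 and 61.9 times (53.9 to 71.5) in replicate 2, with a mean of 57.4 ± 6.34 (SD, n = 2), and the counting intervals overlapped. Mir130b and Mir301, which lie on different chromosomes, were closer, at ratios of 2.69 (2.61 to 2.77) and 2.59 (2.51 to 2.68), a pair added after the data were seen.

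Reads of close relatives can be lost or swapped, so the overlap of the sequences was measured. The longest stretch that a member's hairpin shared with any other of 2202 annotated miRNA hairpins, on either strand, was 17 bases for Mir130a (with Mir6389) and 16 for each of the other 3, shorter than the mature products of 22 or 23 bases. Mir301 and Mir301b shared their 16 bases with each other, and Mir130b shared 16 with Mir6368. At full length, miR-130a-3p and miR-130b-3p each came within 2 mismatches of the other's hairpin, and miR-301a-3p came within 1 mismatch of the Mir301b hairpin. How many mismatches the aligner allowed is not given in the sources used. Whether reads passed between Mir301 and Mir301b was not tested. Matches elsewhere in the genome were not searched.

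In base composition and predicted stability the 4 hairpins lay on both sides of the median of other miRNAs. GC content was 45.3% for Mir130a, 56.1% for Mir130b, 48.8% for Mir301 and 53.6% for Mir301b, against a median of 51% over 1894 hairpins. Predicted folding energy per base (RNAfold) was -0.345 kcal/mol for Mir130a, -0.367 for Mir130b, -0.430 for Mir301 and -0.403 for Mir301b, around the median of -0.379. The most abundant member had the weakest predicted fold per base of the 4.

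No reads were assigned to the other miRNA genes with this seed on a RefSeq mature product that have an entry in the tables. The RefSeq table of 1738 mature sequences held the seed in 4 further genes, and 3 of these have an entry in the count tables. They are shown so that the bases after the seed can be compared with those of the members.
miR-130c: cAGUGCAAuguuccaaggugug
miR-6341: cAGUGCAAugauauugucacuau
miR-6389: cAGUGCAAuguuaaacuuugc
miR-721: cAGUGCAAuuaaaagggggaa

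Mir130c, Mir6341 and Mir6389 had 0 counts in both libraries, so the floor of 3 counts (0.693 CPM in replicate 1, 0.781 CPM in replicate 2) is the upper limit for uniquely placed reads of each. Mir721 was not analysed here, nor was Mir454. Among Mir301b and the genes with the seed AGUGCAA on a RefSeq mature product, all gene counts came from the 4 members. Mature products absent from RefSeq were not searched. Across the 2202 annotated hairpins, 13 (0.590%) held these 7 bases at any position on the annotated strand.

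miRNAs whose seed is the family seed shifted by 1 base recognise overlapping target sites, and they were compared as neighbours in target space. The miR-148, miR-152 and miR-19 sequences are shown for the shift.
miR-148a-3p: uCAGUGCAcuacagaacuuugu
miR-152-3p: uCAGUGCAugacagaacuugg
miR-19a-3p: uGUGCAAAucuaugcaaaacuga
miR-19b-3p: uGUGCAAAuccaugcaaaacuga

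The seed of miR-148 and miR-152 holds the first 6 bases of the family seed and the miR-19 seed holds the last 6. Mir148a reached 1436 CPM in replicate 1 and 1437 in replicate 2, slightly above Mir301 in both. Mir148b reached 278 and 299 CPM and Mir152 reached 171 and 231, each above Mir301b and below Mir301 in both libraries. Mir148a, Mir148b and Mir152 summed to 1925 ± 58.2 CPM (SD, n = 2), and the family sum exceeded theirs by 11.8 times in each library (11.8 ± 0.0119).

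The miR-19 genes were near the low end, with Mir19a at 17.6 and 21.1 CPM, Mir19b-1 at 10.9 and 7.29 and Mir19b-2 at 2.31 and 1.30. Their sum of 30.2 ± 0.740 CPM lay 754 ± 40.5 times below the family sum. Mir19b-1 and Mir19b-2 make the same mature sequence, printed above, and the tables count reads mapping to several places apart from the genes. How reads of these 2 genes were placed was not tested, so the miR-19 level and the ratio are uncertain. A search of all mature seeds for the same shift also returned Mir350, through its 5p product, at 217 and 227 CPM, and Mir291b, with 2 and 5 counts.

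**Figure D3:**
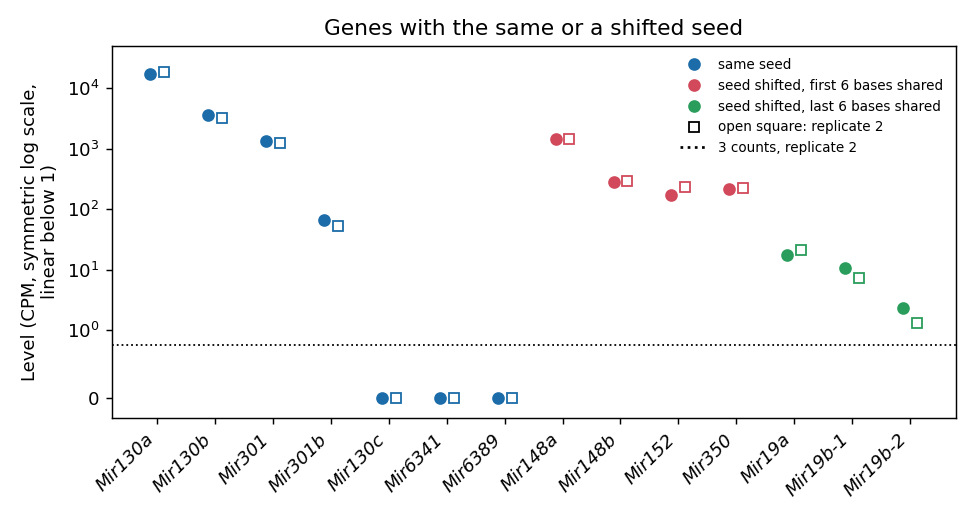
CPM (y axis, symmetric log scale, linear below 1) of the 4 members and of other genes with the same seed (blue), a seed that holds its first 6 bases (red) or its last 6 bases (green), in replicate 1 (filled circles) and replicate 2 (open squares). Mir130c, Mir6341 and Mir6389 lie at 0, and the dotted line marks 3 counts in replicate 2 (0.781 CPM).

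The 2 libraries gave similar levels for Mir130a, Mir130b and Mir301 and differed more for Mir301b. Mir130a was 1.08 times as high in replicate 2 as in replicate 1 (interval 1.07 to 1.09). Mir130b was lower in replicate 2, at a ratio of 0.904 (0.883 to 0.926), as were Mir301 at 0.937 (0.902 to 0.974) and Mir301b at 0.773 (0.643 to 0.928). The absolute log2 difference of Mir301b was larger than that of 246 of the 337 detected genes. The same count was 86 for Mir130a, 107 for Mir130b and 70 for Mir301. None of the 4 passed a 1.5-fold difference, which 12.8% of the 337 detected genes did. That share depended on the count minimum: it was 5.19% of the 231 genes with at least 100 counts in each library, which include all 4 members, and 28.8% of the 542 genes with at least 1.

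The counting intervals of all 4 ratios excluded 1, as did those of 52.2% of detected genes, and 3 of 4 lay below 1, against 19.6% of detected genes. The count of 4 genes is too small to read a difference from these shares. The median absolute log2 ratio was 0.13 for the 4 members and 0.22 for detected genes, on the log2(CPM + 1) scale.

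The size of the Mir130a difference depended on the scaling. It was higher in replicate 2 under every scaling tried except DESeq2 size factors, which left almost no difference. The median detected gene had a log2 ratio of 0.08 (replicate 2 to replicate 1) with the gene total as the scale. With DESeq2 size factors, which lowered all ratios by 0.11 on the log2 scale, Mir130a stood at -0.0026, Mir130b at -0.26, Mir301 at -0.21 and Mir301b at -0.48. With edgeR's TMM factors Mir130a stood at 0.05 and the other 3 stayed below 0. Mir130b, Mir301 and Mir301b were lower in replicate 2 under every scaling tried.

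**Figure D4:**
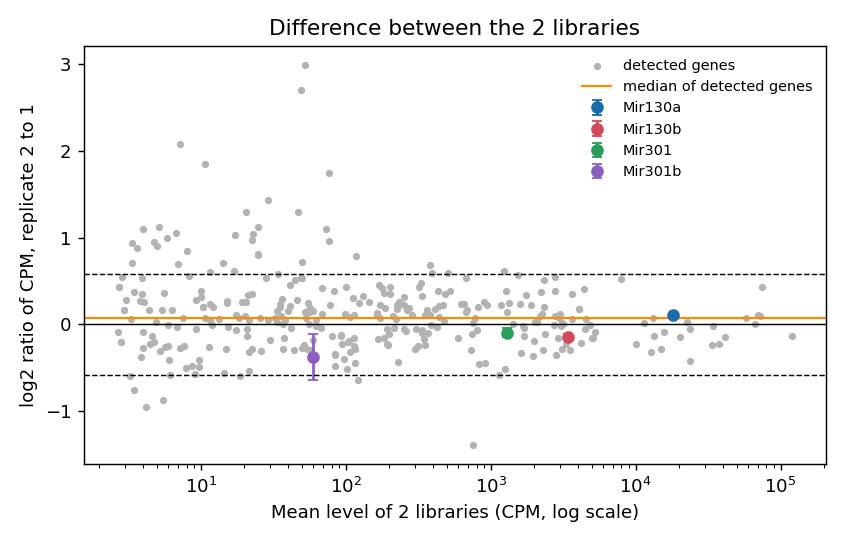
log2 ratio of CPM in replicate 2 to replicate 1 (y axis) against mean CPM (x axis, log scale) for 337 detected genes (grey) and the 4 members (coloured, with 95% counting intervals). Dashed lines mark 1.5-fold, the solid line 0 and the orange line the median of detected genes at 0.08, and all 4 members lie inside the dashed lines.

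Markers of other cells also differed between the libraries. In replicate 1 the 7 epithelial markers summed to 667 CPM, against 1142 CPM in replicate 2, and all 7 were higher there. Their ratios of replicate 2 to replicate 1 ran from 1.18 (Mir203) to 7.95 (Mir205). Mir137, the only gene analysed from the neuronal list, had 13.2 CPM in replicate 1 and 85.7 CPM in replicate 2. Mir451a and Mir144, of red blood cells, summed to 1184 and 489 CPM, and Mir223 and Mir155, of white blood cells, to 479 and 389, each lower in replicate 2. The smooth muscle genes Mir143 and Mir145a summed to 64494 and 87098 CPM, and the endothelial and vessel genes Mir126a, Mir221 and Mir222 to 70034 and 75116. Mir126a carried nearly all of the latter sum, at 69932 and 75015 CPM. Mir221 was slightly lower in replicate 2 (69.1 and 66.9 CPM) and Mir222 nearly the same (33.3 and 33.9). The part of cell makeup in the ratios of the 4 genes was not tested, and in whole hearts fewer cells of a type and less of a miRNA per cell cannot be told apart.

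For each member the 2 detected genes with the most similar values were found by Euclidean distance in log2(CPM + 1) over the 2 libraries. Mir130a lay closest to Mir23b (21155 and 19085 CPM, distance 0.29) and Mir99b (16283 and 15343, distance 0.30), and its own values fell between theirs in both libraries. Mir130b lay closest to Mir298 (3603 and 3075 CPM, 0.08) and Mir125a (3875 and 3151, 0.12). Mir301 lay closest to Mir28a (1235 and 1367 CPM, 0.17) and to Mir148a (0.23), which is also a shifted-seed relative. Mir301b lay closest to Mir146 (62.2 and 50.8 CPM, 0.13) and Mir7j (63.5 and 56.0, 0.13). With 2 libraries this likeness is one of level and carries no information on shared expression across conditions.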

How the data were processed

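The 2 small RNA libraries of mouse embryonic heart were analysed from the deposited count tables, which hold whole-number counts per miRNA gene, which differ in total between libraries and so appear raw. Per the file descriptions deposited with them, the tables use mm10 and GENCODE M4. Aligner and counter are not given in the sources used. Each table has 3 columns, both strands and each strand alone, and the strand with more gene reads (95.4% ± 0.103, SD, n = 2) was used. Lines naming no gene were left out of totals, and 53.0% ± 0.191 of all reads were on genes of that strand.

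GENCODE M21, on the same assembly, gave symbols, coordinates and hairpins and named 1894 of 1973 identifiers. Mature sequences came from RefSeq (GRCm38.p6), whose hairpins matched all 4 members. Computed here were CPM, mean and SD over libraries, exact binomial intervals at 95%, ratios, seed matches, shared stretches and RNAfold 2.7.2 energies. The calculation of the ratio and its interval was checked on simulated counts that held counting error alone. That check cannot show whether the intervals cover other spread between libraries. Only 1 group exists, so no test between groups was made. Alternatives were the unstranded column, TMM (edgeR 4.0.16), size factors (DESeq2 1.42.0, R 4.3.3), other totals, pseudocounts of 0.1 and 10 CPM, count minimums of 1 and 100 and each replicate left out. Python 3.11.15, numpy 2.4.6, pandas 2.3.3, scipy 1.17.1 and matplotlib 3.10.9 were used.

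The members and the lists of relatives and markers were chosen with earlier results of these data known. Named genes were the members, genes with the same seed, the miR-148, miR-152 and miR-19 genes, miRNA genes within 10 kb, the 2 genes nearest in level to each member, and markers. Mir350, Mir291b, Mir6368 and Mir6389 were named after their values were seen. Mir142, Mir124-1 and Mir9-1 of the marker lists, the latter 2 from a neuronal list whose Mir137 had 13.2 and 85.7 CPM, were not analysed here. Mir122, of liver, had 38.4 and 44.5 CPM.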

Additional observations from a re-analysis of the deposited data

Results flagged for a closer look

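Mir130a had 6 reads on the opposite strand in replicate 1, a column not used for the levels, which is above the limit of 3 counts. It had 1 such read in replicate 2, and the other 3 members had 0 in both libraries.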

How the results depend on the processing

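Of 88 values recomputed under alternatives other than leaving out a library, 59 stayed close to the reported value (within its spread or interval, or within 1.5 times for counts of genes) and 29 moved. No paired analysis was possible because the series has 1 group. The order of the members held in every alternative run for it (unstranded column, per hairpin base, each replicate left out). None of these runs could have changed it, so they do not test the order. Hairpin length rises as level falls, only Mir130a had opposite-strand reads, and each library alone had already given this order. Leaving out 1 of 2 libraries cannot move a mean by more than its SD, so it does not test the levels, shares or ratios, and the unstranded column hardly touches shares and ratios. The levels follow the denominator. Scaled to all reads, Mir130a stood at 9532 CPM, Mir130b at 1808, Mir301 at 684, Mir301b at 31.8 and the sum at 12056. Without the most abundant gene in the total they were 20444, 3878 and 1468 for the first 3 and 25859 for the sum. In the unstranded column Mir301 was 1232 and the sum 21710. The log2 ratios of replicate 2 to 1 were, with TMM, 0.046 for Mir130a, -0.21 for Mir130b, -0.16 for Mir301 and -0.0056 for the sum. With DESeq2 size factors they were -0.0026, -0.26, -0.21 and -0.054, and the sum had been 0.06 with gene totals. Without the most abundant gene Mir130a was 0.093 and the sum 0.042. Genes past 1.5-fold numbered 43, against 156 of 542 with at least 1 count in each library and 12 of 231 with at least 100. Their split was 36 higher and 7 lower in replicate 2, and 29 and 18 with DESeq2 size factors. Genes whose interval lay below 1 numbered 66, and 111 with DESeq2 size factors, while 3 members did so with gene totals, TMM and DESeq2 size factors, a comparison added after the data were seen. Depth limits Mir301b most, at 293 and 201 counts.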
